A study of Mus musculus with 19 samples.

Results

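Ribosome biogenesis and RNA polymerase I genes were followed in the small intestinal crypts of neurotensin (NT) wild-type and knockout mice that were fed or fasted. The set holds 36 genes chosen by name as nucleolar, ribosome assembly, or RNA polymerase I genes and matched by symbol, of 55487 genes in the files. All 36 were found, and all 36 passed the filter on low counts, so none was left out. Crypts are the epithelial pits that hold the intestinal stem cells and the dividing progenitors above them, and the study asked how NT, a gut peptide, acts on them when nutrients are present or withdrawn. Each of 19 C57BL/6 mice gave 1 crypt library: 5 Nt+/+ and 4 Nt-/- mice had chow ad libitum, and 5 Nt+/+ and 5 Nt-/- mice had water only for 48 hours. Per the methods, mice in fasting studies were 10 to 16 weeks old and of both sexes, and fed controls were littermates of like age and sex. Crypts came, also per the methods, from the proximal and larger part of the small intestine. An Lgr5-EGFP-IRES-CreERT2 allele was carried by mice of the study, and the labels do not say which of these 19 carried it. The knockout is in the whole animal, and NT is made by enteroendocrine cells mostly farther down the gut.

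A ribosome starts in the nucleolus. RNA polymerase I copies the ribosomal DNA into a long precursor, small nucleolar RNPs guide its chemical modification and early cuts, and 2 separate lines of assembly factors fold the precursor with ribosomal proteins into the small and the large subunit. Fast-dividing cells such as crypt progenitors make many ribosomes, and the pathway is known to follow nutrient and growth signals such as mTORC1 and MYC. The 36 genes were read here by role: 5 for RNA polymerase I and its factors, 3 for box C/D snoRNP proteins, 4 for box H/ACA snoRNP proteins, 4 nucleolar phosphoproteins, 9 factors of small subunit assembly, and 11 of large subunit assembly. The measurement is messenger RNA: neither ribosomal RNA, which was depleted from the libraries, nor rates of assembly were measured.

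MYC proteins bind the E-box, whose 6 letters CACGTG read the same on both strands. RefSeq promoters of GRCm38.p6, from 250 bases before to 50 after the start, were found for 30 of the 36 genes, and 6 of the 30 hold the E-box, against 8.09% of 27025 genes with a promoter and 11.2% of the 11360 of those that were tested here. The stretches around it are shown, with the E-box in capitals and up to 12 bases on either side, since the pathway is known as a target of MYC and these are the letter matches in the promoters found; Rrn3 holds 2.
Mybbp1a, chr11:72441355-72441376, plus strand: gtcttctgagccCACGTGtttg
Nop2, chr6:125131811-125131840, plus strand: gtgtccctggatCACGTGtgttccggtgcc
Pes1, chr11:3963965-3963994, plus strand: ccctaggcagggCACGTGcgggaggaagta
Rrn3, chr16:13780472-13780501, plus strand: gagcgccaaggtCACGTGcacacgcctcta
Rrn3, chr16:13780639-13780668, plus strand: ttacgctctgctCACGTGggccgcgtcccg
Utp20, chr10:88826765-88826789, minus strand: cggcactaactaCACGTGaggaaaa
Wdr43, chr17:71616220-71616249, plus strand: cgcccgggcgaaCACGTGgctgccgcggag
In Pes1 the match begins 2 bases after the start and in Utp20 37 bases after it. Heatr1, Nat10, Gar1, and Nop56, described below, have a promoter in that table and no match in it.

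Counts summed to between 9059418 and 35068669 per mouse. The 2 shallowest libraries, at 9059418 and 10067595 counts, were both of fasted Nt-/- mice (replicates 2 and 4). The fasting calls in Nt-/- mice are therefore given also without them. Nts, the NT gene, was at 7.82 ± 0.77 CPM (counts scaled to the size of the library; mean ± SD, n = 5) in ad libitum–fed and 5.42 ± 0.27 (n = 5) in fasted Nt+/+ mice, against 0.31 ± 0.29 (n = 4) and 0.43 ± 0.23 (n = 5) in Nt-/- mice. The highest Nt-/- mouse was at 0.79 CPM and the lowest Nt+/+ mouse at 4.98, so the groups followed their titles; that includes replicate 5 of the fasted Nt+/+ group, whose genotype label says NT -/- and which was kept with its title. Markers of crypt cells were present: all 6 stem cell markers, all 6 Paneth cell markers, and all 10 proliferating cell markers had counts in every mouse. Of the 8 stromal markers, 5 had counts in every mouse, and their summed level was at most 14.7 CPM in any mouse. All 7 immune markers had counts in every mouse, with sums from 57.0 to 145 CPM. Fasting lowered 1 of the 7 in each genotype and raised none, where 10.4% (Nt+/+) and 12.6% (Nt-/-) of all genes tested fell. CPM values were scaled by TMM (trimmed mean of M values), and CPM is used here for the same gene across mice. Levels of different genes are compared only in the deposited TPM, which is scaled to transcript length as well as to the library.

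By TPM, the 2 most abundant members in every group were Npm1, a nucleolar histone and ribosome chaperone, and Ncl, the nucleolin gene, whose product binds the precursor RNA. Npm1 was at 342 TPM and Ncl at 193 TPM in ad libitum–fed Nt+/+ mice. The box C/D proteins came next: Nop58 at 96.8 TPM, Nop56 at 91.6 TPM, and Fbl, which encodes the methyltransferase fibrillarin, at 71.6 TPM. Nop56 was above Nop58 in fasted Nt+/+ mice and below it in the other groups. The lowest members in every group were Noc3l, at 7.85 TPM in ad libitum–fed Nt+/+ mice, and Rrp12, at 8.24 TPM there. Heatr1 at 15.7 TPM, Utp20 at 14.3 TPM, and Tcof1 at 18.6 TPM, the members with the largest changes below, thus stood in the lower part of this order. From rank to rank, Npm1, Ncl, and Fbl stood apart from their next neighbor by more than the SD of either gene in every group, while most neighbors farther down did not.

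**Figure D1:**
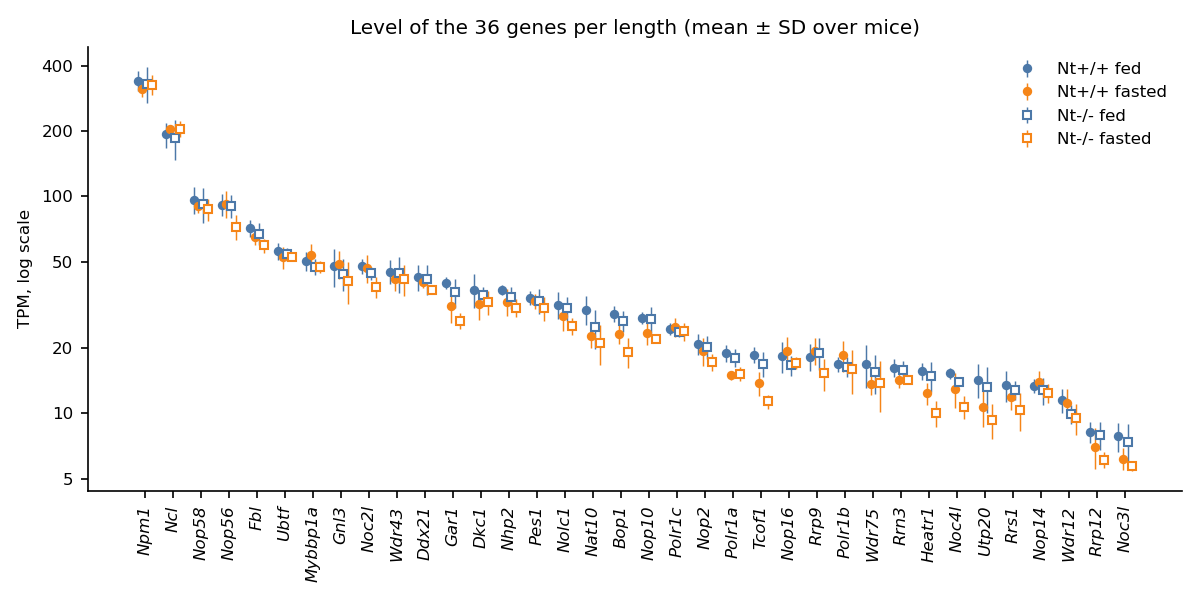
TPM of the 36 genes on a log axis, in order of their mean in ad libitum–fed Nt+/+ mice, with a point and an SD bar for each of the 4 groups. Npm1 and Ncl lie far above the rest, the middle of the order is nearly continuous, and the fasted groups (orange) lie under the fed groups (blue) most clearly at Heatr1, Tcof1, Utp20, Gar1, and Bop1.

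Without a block for the number of the mouse, described below, fasting lowered a few of these genes in both genotypes and raised none. In Nt+/+ mice 3 of 36 fell and 0 rose at an adjusted p under 0.05 (edgeR's quasi-likelihood test, Benjamini-Hochberg over all 17875 genes tested). By the same rule 10.4% of all genes tested fell and 11.2% rose, and 21.6% did either. In Nt-/- mice 7 of 36 fell and 0 rose, where 12.6% of all genes tested fell and 12.5% rose, 25.2% in all. For falling genes the share of members in this fit was thus near the background in Nt+/+ mice and above it in Nt-/- mice. The list was chosen with earlier results of these data known, so these shares only describe it, and their difference from the background was not tested. With the number of the file names as a block, 10 of 36 fell in Nt+/+ mice, where 15.7% of all genes fell. In Nt-/- mice 18 of 36 fell with that block, against 17.0%. Without the block and the 2 shallowest libraries, 3 of 36 fell in Nt-/- mice. DESeq2 called 3 and 6 members lower, and none higher, its shares of all genes not being given here. The Nt+/+ count moved with single mice: it was 1 without fasted replicate 2, 5 without fasted replicate 1 or 3, and 6 without fed replicate 2. The Nt-/- count was 4 without fed Nt-/- replicate 1. For the fits that left out mice, the shares of all genes called are not given here. Whether those moves are particular to the members thus cannot be read from the counts. Heatr1, Utp20, and Tcof1 fell in both genotypes, and Nat10, Gar1, Bop1, and Nop56 passed the test in Nt-/- mice. The median log2 fold change of the 36 was −0.091 in Nt+/+ mice, where that of all genes tested was −0.0089, and −0.18 in Nt-/- mice, against −0.022 for all. Leaving out a mouse, the Nt+/+ median ran from −0.13 (without fasted replicate 1) to −0.020 (without fasted replicate 2; −0.041 without fasted replicate 4, and −0.050 and −0.052 without fed replicates 1 and 3), and the Nt-/- median from −0.23 to −0.15. In Nt+/+ mice 25 members had a log2 fold change below 0, as did 50.9% of all genes tested; in Nt-/- mice 32 did, against 52.4%. Unadjusted p values under 0.05 were found for 8 and 12 members, where 34.1% and 36.5% of all genes tested had one. Most differences were small: 95% intervals of 32 members in Nt+/+ mice and 25 in Nt-/- mice lay wholly within a 1.5-fold change.

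Heatr1 encodes a large HEAT-repeat protein of the small subunit processome that is also needed for RNA polymerase I transcription. Its levels in the 5 ad libitum–fed Nt+/+ mice were 82.5, 62.5, 91.4, 78.01, and 80.6 CPM (replicates 1 to 5), and in the 5 fasted ones 61.9, 49.2, 70.5, 49.5, and 57.6 CPM. The groups overlap only through the fed mouse at 62.5, which lies below the fasted mouse at 70.5. In Nt-/- mice Heatr1 was at 69.9, 68.2, 78.2, and 76.4 CPM when fed and at 50.3, 42.1, 59.7, 48.2, and 51.1 CPM when fasted, with no overlap. It fell by 26.8% in Nt+/+ mice (log2 fold change, −0.45 ± 0.11 SE; adjusted p = 0.0059, edgeR) and fell by 31.1% in Nt-/- mice (−0.54 ± 0.12; adjusted p = 0.0021, edgeR). Both calls held with each of the 19 mice left out in turn. The gene lies at chr13:12395027-12440289 (GRCm38), and 155 of its 7828 exon bases are shared with Lgals8 on the other strand; whether counting used strand is not given in the sources used here, so reads there cannot be told apart.

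Utp20, at chr10:88746607-88826804, encodes another large scaffold of the small subunit processome. It was at 70.9, 75.4, 95.9, 78.4, and 90.9 CPM in fed and 62.6, 52.6, 77.4, 54.9, and 65.9 CPM in fasted Nt+/+ mice. Only the fasted mouse at 77.4 reached into the fed range. In Nt-/- mice the fed values were 65.0, 72.8, 83.7, and 82.2 CPM and the fasted values 61.3, 47.0, 58.2, 50.8, and 57.0 CPM, which do not overlap. The log2 fold changes were −0.39 ± 0.11 SE (adjusted p = 0.015, edgeR) in Nt+/+ and −0.47 ± 0.12 (adjusted p = 0.0061, edgeR) in Nt-/- mice. The Nt+/+ call was lost without fasted Nt+/+ replicate 2 (adjusted p = 0.056, edgeR), and the Nt-/- call without the 2 shallowest libraries (adjusted p = 0.054, edgeR).

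Tcof1 encodes treacle, the nucleolar phosphoprotein that holds RNA polymerase I and its upstream binding factor on ribosomal DNA. Fed Nt+/+ mice had 73.8, 56.4, 75.2, 62.0, and 67.7 CPM, and fasted Nt+/+ mice had 59.96, 45.6, 60.6, 41.8, and 50.3 CPM. The ranges overlap between 56.4 and 60.6 CPM. Fed Nt-/- mice had 63.4, 54.2, 65.4, and 68.4 CPM and fasted Nt-/- mice 51.4, 36.1, 39.8, 39.1, and 49.6 CPM, without overlap. Tcof1 fell by 0.37 ± 0.12 SE on the log2 scale in Nt+/+ mice (adjusted p = 0.028, edgeR) and by 0.54 ± 0.13 in Nt-/- mice (adjusted p = 0.0038, edgeR). In Nt+/+ mice this call was the least secure of the 3: it was lost in 5 of 19 fits that left out a mouse (fed replicates 1, 3, and 5 and fasted replicates 2 and 4 of that genotype), with adjusted p up to 0.086 (edgeR). It was also lost with the mouse of disagreeing labels counted as Nt-/-.

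Nat10 (chr2:103721256-103761270), the RNA cytidine acetyltransferase of the small subunit line, differed mostly in Nt-/- mice. Its levels were 53.6, 44.0, 57.7, 53.6, and 55.6 CPM in fed and 50.2, 36.3, 53.6, 42.3, and 41.7 CPM in fasted Nt+/+ mice, which overlap broadly (log2 fold change, −0.24 ± 0.097 SE; adjusted p = 0.089, edgeR). In Nt-/- mice they were 50.1, 49.2, 59.7, and 52.9 CPM when fed and 41.8, 35.7, 40.6, 35.9, and 36.9 CPM when fasted, with no overlap (−0.47 ± 0.10; adjusted p = 0.0024, edgeR). Bop1 (chr15:76452989-76477277), part of the PeBoW complex of large subunit assembly, was at 53.7, 38.2, 56.3, 46.8, and 47.5 CPM in fed and 44.3, 35.1, 46.4, 35.9, and 38.7 CPM in fasted Nt+/+ mice (−0.27 ± 0.11; adjusted p = 0.072, edgeR). In Nt-/- mice Bop1 was at 48.6, 45.5, 43.5, and 46.1 CPM when fed and at 41.5, 34.4, 30.2, 32.3, and 38.7 CPM when fasted (−0.37 ± 0.11; adjusted p = 0.020, edgeR), again without overlap. The Bop1 call in Nt-/- mice was lost without fed Nt-/- replicate 1 or fasted Nt-/- replicate 3 (adjusted p up to 0.058, edgeR). It was also lost without the 2 shallowest libraries and without the mice numbered 2 (adjusted p up to 0.0997, edgeR). That these genes passed in Nt-/- mice alone does not show that the genotypes differ; that test is given below.

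**Figure D2:**
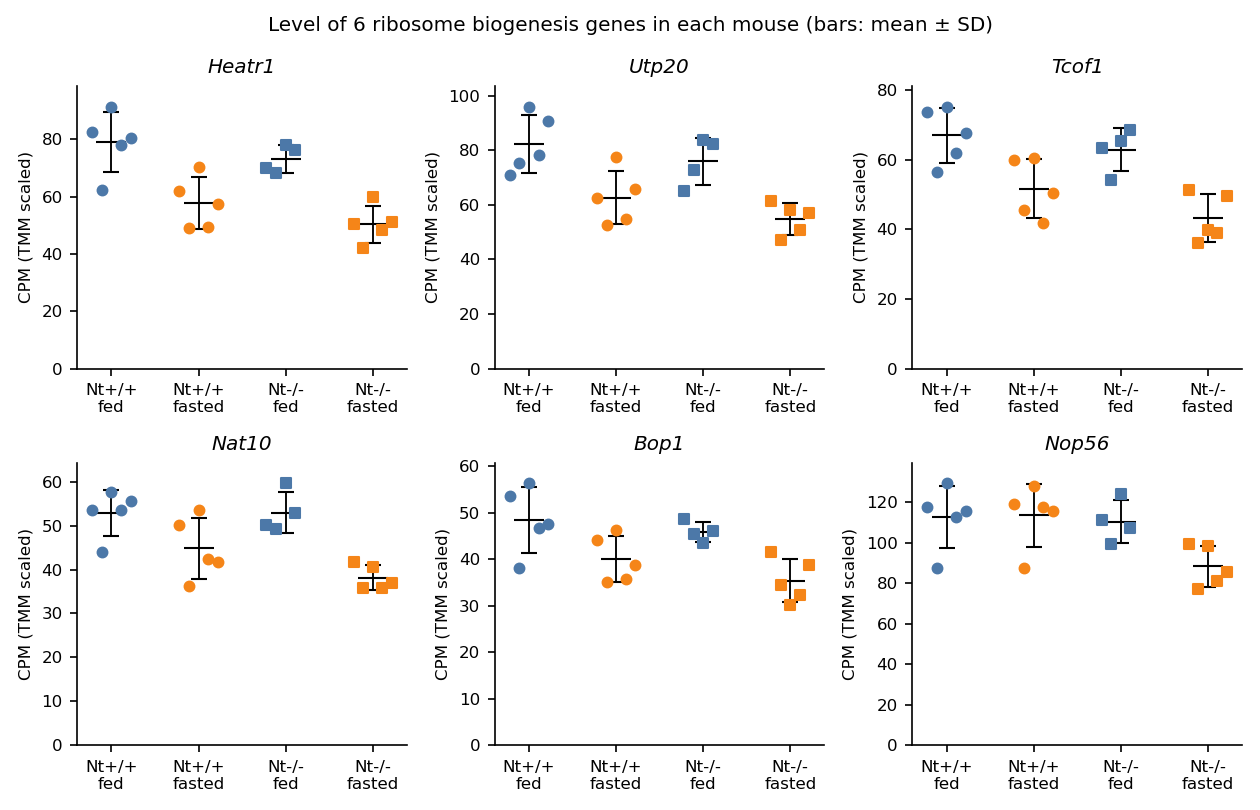
CPM of 6 genes in each mouse (points, side by side in the order of the replicate numbers), with the mean and SD of each group as black bars; circles are Nt+/+ and squares Nt-/- mice, blue fed and orange fasted. Fed and fasted Nt-/- mice do not overlap for Heatr1, Utp20, Tcof1, Nat10, or Bop1, whereas all Nt+/+ panels overlap, and Nop56 was at 113 and 114 CPM in fed and fasted Nt+/+ mice and at 111 and 88.4 CPM in fed and fasted Nt-/- mice.

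In Nt-/- mice the fed and the fasted values did not overlap for 7 of 36 members, all lower when fasted: Gar1, Tcof1, Utp20, Heatr1, Nat10, Rrp12, and Bop1. Among all genes tested 10.8% had such a gap downward, and 10.5% upward. In Nt+/+ mice none of the 36 had a gap in either direction, where 6.97% of all genes had one downward. Of the 7 with a gap, Rrp12 did not pass the edgeR test (log2 fold change, −0.35 ± 0.16 SE; adjusted p = 0.12).

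Read by role, the RNA polymerase I genes had no call in either genotype without a block for the mouse number; with the number of the file names as a block, described below, Polr1a and Rrn3 were called in both. Polr1a, the largest catalytic subunit, went from 69.1 ± 8.6 to 59.8 ± 7.6 CPM in Nt+/+ mice (log2 fold change, −0.21 ± 0.10 SE; adjusted p = 0.17, edgeR) and from 67.2 ± 4.7 to 55.5 ± 7.6 CPM in Nt-/- mice (−0.27 ± 0.11; adjusted p = 0.078, edgeR). Rrn3, the initiation factor that brings the polymerase to the promoter, went from 47.7 ± 3.4 to 42.8 ± 3.1 CPM and from 47.3 ± 3.5 to 42.9 ± 3.5 CPM (−0.16 ± 0.073 and −0.14 ± 0.077; adjusted p = 0.14 and 0.20, edgeR). Polr1c, which RNA polymerases I and III share, was at 23.3, 24.5, 23.5, and 23.3 CPM in fed and fasted Nt+/+ and fed and fasted Nt-/- mice (0.071 ± 0.091 and −0.011 ± 0.097; adjusted p = 0.63 and 0.95, edgeR). For Ubtf, the upstream binding factor, and Polr1b, the second largest subunit, log2 fold changes lay between −0.092 and 0.074. The 95% interval for Ubtf ran from −0.18 to 0.15 in Nt+/+ and from −0.17 to 0.17 in Nt-/- mice.

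Of the box C/D proteins, which belong to snoRNPs that guide methylation of the precursor, only Nop56 in Nt-/- mice passed. In Nt+/+ mice it was at 113 ± 15.3 CPM when fed and 114 ± 15.4 CPM when fasted (log2 fold change, 0.012 ± 0.11 SE, adjusted p = 0.95, edgeR). In Nt-/- mice it went from 111 ± 10.5 to 88.4 ± 10.2 CPM (−0.32 ± 0.12, adjusted p = 0.047, edgeR). Without the block this call stood at the threshold and was lost in 12 of 19 fits that left out a mouse (fed Nt+/+ replicates 1, 4, and 5, fed Nt-/- replicates 1, 3, and 4, fasted Nt+/+ replicates 1, 4, and 5, and fasted Nt-/- replicates 2, 4, and 5), with adjusted p up to 0.16, and under DESeq2; with the block its adjusted p was 0.00055 by file names and 0.00099 by titles (edgeR). The Nop56 call was also lost without the 2 shallowest libraries and with no filter on low counts. Sex as a covariate lost it too, as did counting the mouse of disagreeing labels as Nt-/-. Fbl and Nop58 had log2 fold changes of −0.077 and −0.025 in Nt+/+ mice and of −0.17 and −0.089 in Nt-/- mice, with adjusted p of 0.31 or more (edgeR). All 4 box H/ACA proteins, which belong to snoRNPs that guide pseudouridylation, had log2 fold changes below 0 in both genotypes, with 1 call without the block. With the block Gar1 and Dkc1 were called in both genotypes and Nop10 in Nt-/- mice. Gar1 went from 18.2 ± 1.8 to 14.3 ± 3.2 CPM in Nt+/+ mice (−0.34 ± 0.14; adjusted p = 0.090, edgeR) and from 16.7 ± 1.8 to 12.3 ± 1.9 CPM in Nt-/- mice (−0.44 ± 0.15; adjusted p = 0.040, edgeR). The Gar1 call was lost in 6 of 19 fits that left out a mouse (fed Nt-/- replicates 1, 3, and 4 and fasted Nt-/- replicates 2, 3, and 4). It was also lost without the 2 shallowest libraries, without the mice numbered 2, and with no filter on low counts. Counting the mouse of disagreeing labels as Nt-/- lost it too. Nop10 had −0.17 ± 0.11 and −0.27 ± 0.12, and Dkc1, the pseudouridine synthase dyskerin, −0.18 ± 0.10 and −0.20 ± 0.11 (adjusted p between 0.0995 and 0.29, edgeR); Nhp2 had −0.11 and −0.13.

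Among the nucleolar phosphoproteins Tcof1 fell and the other 3 did not pass without the block, with which Nolc1 was called in Nt-/- mice. Ncl lay higher in fasted mice, at 585 ± 49.7 against 642 ± 67.6 CPM in Nt+/+ and 570 ± 82.8 against 635 ± 67.5 CPM in Nt-/- mice, but the difference was within the spread (log2 fold change, 0.14 ± 0.10 SE and 0.16 ± 0.11; adjusted p = 0.38 and 0.33, edgeR). Nolc1, a chaperone of snoRNPs, went from 75.0 ± 12.5 to 67.7 ± 12.3 and from 72.6 ± 6.8 to 58.9 ± 8.6 CPM (−0.15 ± 0.13 and −0.30 ± 0.14; adjusted p = 0.47 and 0.13, edgeR). Npm1 had −0.12 and −0.029. In small subunit assembly Heatr1 and Utp20 fell in both genotypes and Nat10 in Nt-/- mice. The other 6 (Wdr75, Noc4l, Rrp12, Nop14, Wdr43, and Rrp9) had log2 fold changes from −0.22 to 0.12 in Nt+/+ mice and from −0.35 to −0.011 in Nt-/- mice, with adjusted p of at least 0.12 (edgeR); with the block Noc4l, Rrp12, and Rrp9 were called in Nt-/- mice. In large subunit assembly Bop1 in Nt-/- mice was the single call without the block; with it Bop1 and Noc3l were called in both genotypes and Noc2l and Nop2 in Nt-/- mice. Noc3l went from 27.2 ± 3.6 to 22.5 ± 3.7 CPM in Nt+/+ mice (−0.27 ± 0.12; adjusted p = 0.12, edgeR) and from 25.8 ± 3.5 to 20.3 ± 2.3 CPM in Nt-/- mice (−0.34 ± 0.13; adjusted p = 0.060, edgeR). Nop2, an RNA methyltransferase, had −0.11 ± 0.13 and −0.27 ± 0.14 (adjusted p = 0.62 and 0.17, edgeR). The other 8 of this role (Ddx21, Pes1, Nop16, Wdr12, Mybbp1a, Gnl3, Rrs1, and Noc2l) ran from −0.12 to 0.15 and from −0.28 to 0.0076. Pes1, which binds Bop1 in the PeBoW complex, was among them at 0.0026 and 0.0076, while Bop1 had −0.27 and −0.37.

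**Figure D3:**
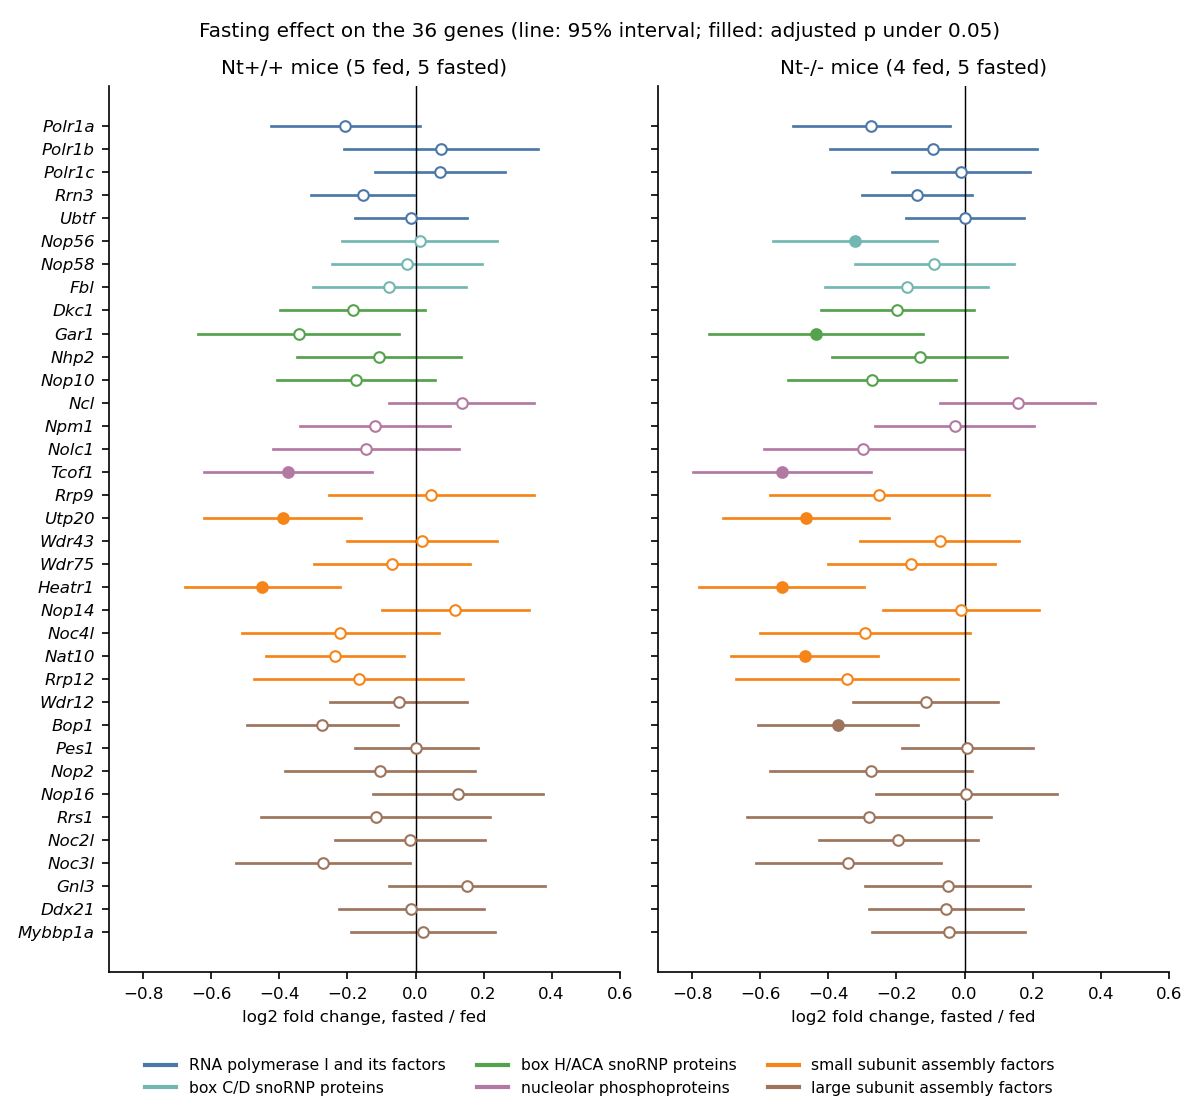
Log2 fold change of fasted over fed mice for each of the 36 genes, in Nt+/+ (left) and Nt-/- mice (right), colored by role; lines are 95% intervals from the fit, filled points have an adjusted p under 0.05, and the vertical line marks no change. Filled points lie below 0 in both panels, 3 on the left and 7 on the right, and in both panels the largest falls are those of Heatr1, Utp20, and Tcof1, joined by Nat10 on the right.

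The genes ranked alike in the 2 fasting comparisons, which share no mouse: across the 36 genes the log2 fold changes had a Pearson r of 0.86 and a Spearman rho of 0.82, where all 17875 genes gave 0.78 and 0.76. This is a description across genes, which are not independent replicates. The log10 of the effective length against the log2 fold change gave r of −0.28 in Nt+/+ and −0.20 in Nt-/- mice over the 36 genes, and −0.0095 and −0.015 over all genes tested.

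The level of the whole set varied between mice of a group. Averaged over the 36 genes, the log2(CPM + 1) was 5.78 ± 0.15 in fed and 5.67 ± 0.18 in fasted Nt+/+ mice, and 5.73 ± 0.11 in fed and 5.53 ± 0.13 in fasted Nt-/- mice. In each of the 4 groups the mouse numbered 2 was lowest, at 5.53, 5.43, 5.58, and 5.37 in the same order. Of the 36 genes, 30 were lowest in mouse 2 among fed Nt+/+ mice, 28 among fasted Nt+/+ mice, 31 among fed Nt-/- mice, and 21 among fasted Nt-/- mice, whereas 22.1%, 15.98%, 26.5%, and 20.7% of all genes were lowest there. File names carry a number of their own, which differs from that of the title for 2 fed Nt-/- mice. What the numbers stand for is not given in the sources used here, and all 4 mice numbered 2 are labelled female. So are all mice with file-name number 1 or 4, while those with 3 or 5 are male where a sex is given.

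**Figure D4:**
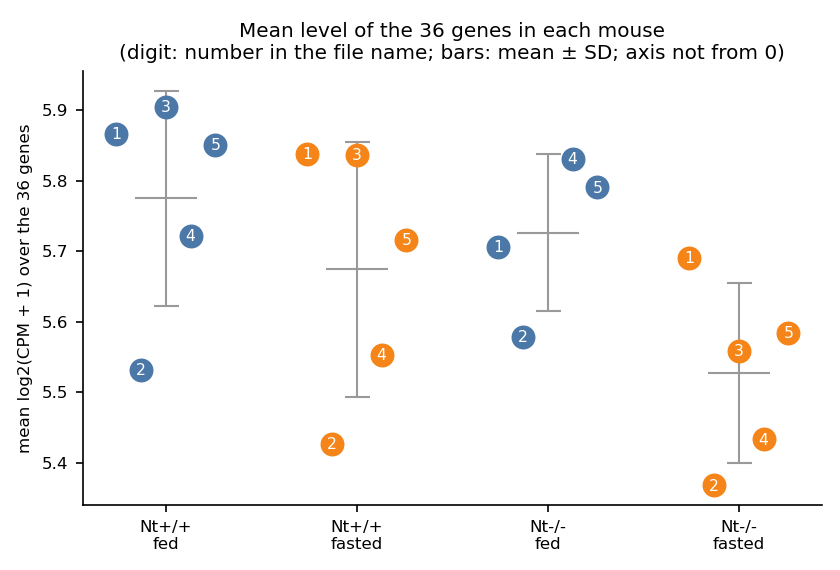
Mean log2(CPM + 1) over the 36 genes in each mouse, by group, with the number from the file name in each point and the mean and SD of each group in gray. The mouse numbered 2 is lowest in every group, and among Nt+/+ mice those numbered 2, 4, and 5 follow each other from below in both diets.

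Because mice of the same number deviated together, the fasting comparisons were also fitted with the number as a block. The reason for this block is thus a pattern seen in these same data, and what the number stands for is not known here. With the number of the file names as the block 10 of 36 members fell in Nt+/+ mice, where 15.7% of all genes fell, and 18 of 36 in Nt-/- mice, where 17.0% of all genes fell; 0 rose, while 15.0% and 14.7% of all genes rose. With the number of the titles the counts were 10, where 14.1% of all genes fell and 13.9% rose, and 16, where 16.8% fell and 14.8% rose. All 10 genes called in Nt+/+ mice with the file-name block were also called in Nt-/- mice: Heatr1, Utp20, Tcof1, Nat10, Bop1, Gar1, Dkc1, Noc3l, Polr1a, and Rrn3. The log2 fold change of Heatr1 in Nt+/+ mice was −0.45 in that fit too, and its SE went from 0.11 to 0.060. Polr1a and Rrn3, with no call above, had −0.21 ± 0.065 (adjusted p = 0.023, edgeR) and −0.16 ± 0.047 (adjusted p = 0.019, edgeR) in Nt+/+ mice under the block. Counted directly, 13 members were lower in the fasted mouse of all 5 same-numbered Nt+/+ pairs, as were 20.6% of all genes, and 17 in all 4 Nt-/- pairs, against 24.9%; Ncl was higher in every pair of both genotypes, and Nop16 in every Nt+/+ pair, as were 18.3% (Nt+/+) and 20.8% (Nt-/-) of all genes. Without the mice numbered 2, an alternative chosen after seeing the data, 1 member (Heatr1) fell in Nt+/+ mice and 5 fell in Nt-/- mice. Without the 2 shallowest libraries, also chosen after seeing the data, 3 members fell in Nt-/- mice (Heatr1, Tcof1, and Nat10). The shares of all genes called in these 2 fits are not given here. Whether the lower counts are particular to the members thus cannot be read from them.

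Other cell markers moved with fasting beside these genes. Of all genes tested 11.2% rose and 10.4% fell in Nt+/+ mice, and 12.5% rose and 12.6% fell in Nt-/- mice. Of 10 mature enterocyte markers, 8 rose in Nt+/+ and 10 in Nt-/- mice, and their summed level ran from 4597 to 9086 CPM in fed and from 8938 to 18672 CPM in fasted Nt+/+ mice, and from 6801 to 9924 CPM in fed and from 16626 to 22549 CPM in fasted Nt-/- mice. Of 10 proliferating cell markers, 6 and 9 fell, and their summed level ran from 1817 to 2082 in fed and from 1195 to 1604 CPM in fasted Nt+/+ mice, and from 1763 to 1904 in fed and from 1063 to 1352 CPM in fasted Nt-/- mice. In a bulk sample fewer cells of a type and less RNA per cell cannot be told apart, and the part of these shifts in the values of the 36 genes was not tested. Of 6 stem cell markers 1 fell in Nt+/+ and 2 in Nt-/- mice, and of 6 Paneth cell markers 0 and 1 fell, with no rise in either list.

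Between genotypes no member passed the test. In ad libitum–fed mice 0 of 36 were called by edgeR or DESeq2, and 0 had an unadjusted p under 0.05, as had 1.67% of all genes; 0.00559% of all genes, which is 1 gene, were called. The smallest p values were those of Wdr12, Utp20, and Noc4l, with log2 fold changes of Nt-/- over Nt+/+ mice of −0.10 ± 0.10 SE, −0.12 ± 0.12, and −0.14 ± 0.15 (adjusted p = 1.0 each, edgeR). All 36 intervals lay within a 1.5-fold change, and the widest bounds were −0.44 and 0.30. The sign was nearly uniform, with 33 of 36 below 0 and a median of −0.047. Without fed Nt-/- replicate 2, however, the count was 17 and the median 0.0072. The median of all genes and their share below 0 are not given here. Whether the sign is particular to the members thus cannot be read from the count. No member had fed groups free of overlap, against 0.336% of all genes lower and 0.358% higher in Nt-/- mice.

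In fasted mice again 0 of 36 were called by edgeR or DESeq2, 0.00559% of all genes being called by edgeR, while 6 had an unadjusted p under 0.05, all lower in Nt-/- mice, as had 9.14% of all genes tested in either direction. Nop56 was at 119, 87.4, 128, 118, and 116 CPM in fasted Nt+/+ and at 99.4, 77.2, 98.6, 81.0, and 85.8 CPM in fasted Nt-/- mice, and the groups overlap only through the Nt+/+ mouse at 87.4, which is numbered 2. Its log2 fold change was −0.36 ± 0.11 SE (adjusted p = 0.31, edgeR), and with the block its adjusted p was 0.052 by file names and 0.066 by titles. Gnl3, which encodes the nucleolar GTPase nucleostemin, had −0.27 ± 0.11 (adjusted p = 0.45, edgeR), and Noc2l had −0.26 ± 0.11 (adjusted p = 0.45, edgeR). Below 0 were 33 of 36 members, with a median of −0.16, against −0.013 for all genes tested. The share of all genes below 0 is not given here for this comparison. Here too no member was free of overlap, against 0.615% of all genes lower and 0.94% higher. Without the 2 shallowest libraries the median was −0.081 with 28 members below 0. This comparison uses the same fasted mice as the fasting comparisons above, so the values are not independent of them.

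The difference of the fasting effects, the test of whether the 2 genotypes responded unlike, called 0 of 36 members and 0.0% of all genes by edgeR, and DESeq2 called none. An unadjusted p under 0.05 was found for 1 member by edgeR and for 0 by DESeq2, and for 2.71% of all genes by edgeR. Nop56 had a difference (Nt-/- minus Nt+/+) of −0.33 ± 0.16 SE on the log2 scale (adjusted p = 1.0, edgeR), Nat10 −0.23 ± 0.14, and Rrp9 −0.30 ± 0.21 (adjusted p = 1.0 each, edgeR). For Heatr1 it was −0.088, with a 95% interval from −0.42 to 0.25. The median over the 36 was −0.090, with 31 below 0, against −0.0097 and 52.0% for all genes tested. With a mouse left out it ran from −0.14 (without fasted Nt+/+ replicate 4) to −0.039 (without fed Nt+/+ replicate 2), with 26 to 35 below 0, and without the 2 shallowest libraries it was −0.014, with 21 below 0. The intervals, from −0.74 to 0.41 at their widest, leave room for differences of the size of the fasting effects themselves.

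**Figure D5:**
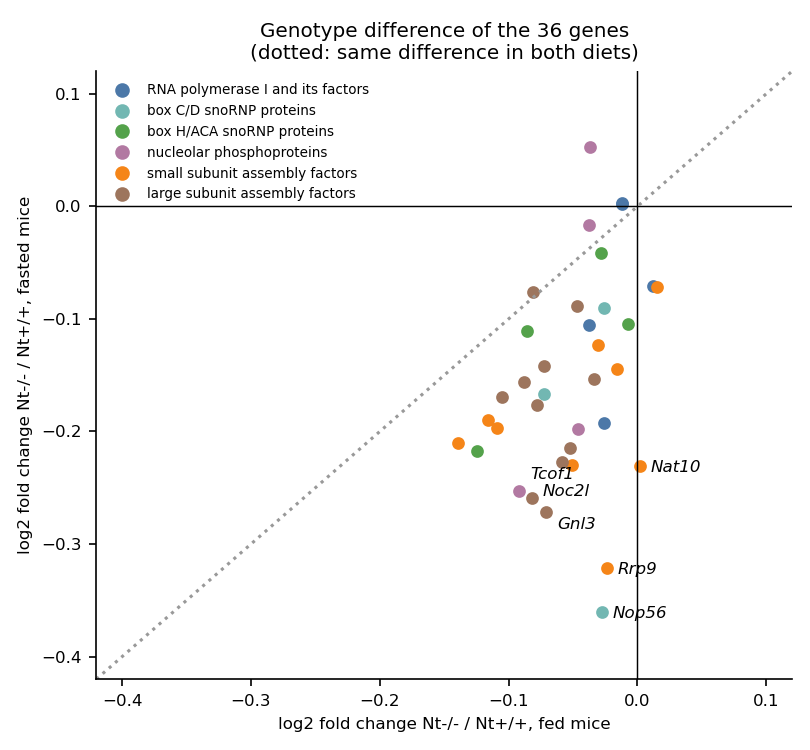
Log2 fold change of Nt-/- over Nt+/+ mice for each of the 36 genes in fed mice (x axis) and fasted mice (y axis), colored by role; the dotted line marks equal differences. Nearly all points lie below 0 on both axes and most under the dotted line, with Nop56 lowest at −0.36 in fasted mice, but no gene passed the test in either diet.

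The neighbors of these genes in the pathway gave the following, without the block. Of all genes tested 10.4% fell and 11.2% rose in Nt+/+ mice, and 12.6% fell and 12.5% rose in Nt-/- mice. The counts of each list are to be read beside these shares. Of 9 other RNA polymerase I genes, 1 fell in each genotype: Taf1d, of the promoter selectivity factor, went from 364 ± 34 to 246 ± 16 CPM in Nt+/+ mice (log2 fold change, −0.56 ± 0.13 SE; adjusted p = 0.0052, edgeR) and had −0.65 ± 0.14 in Nt-/- mice, while Polr1h had −0.31 ± 0.14 in Nt+/+ mice (adjusted p = 0.13, edgeR). Of 47 other small subunit genes, 2 fell in Nt+/+ and 6 in Nt-/- mice, and none rose; the 2 were Emg1, a pseudouridine methyltransferase (−0.28 ± 0.065 in Nt+/+ mice), and Bud23, which methylates the small subunit RNA (−0.36 ± 0.086). Of 46 other large subunit genes, 4 fell and 3 rose in Nt+/+ mice and 6 fell and 3 rose in Nt-/- mice. Nop53, which brings the exosome to late precursors, rose from 88.8 ± 6.6 to 118 ± 4.6 CPM in Nt+/+ mice (0.42 ± 0.086; adjusted p = 0.0017, edgeR), and Spata5 fell (−0.51 ± 0.12). Of 11 genes tested of the RNA exosome, the nuclease that trims precursors, 3 fell and 1 rose in Nt+/+ mice, and 6 fell and 1 rose in Nt-/- mice. Exosc8 went from 20.5 ± 1.7 to 13.4 ± 1.9 CPM in Nt+/+ mice (−0.61 ± 0.11; adjusted p = 6e-04, edgeR), and the helicase Mtrex had −0.32 ± 0.068. Of 19 RNA polymerase III genes, 3 fell and 1 rose, and then 5 fell and 1 rose; Polr3b (−0.35 ± 0.070) and Polr3k (−0.39 ± 0.10), both subunits, led in Nt+/+ mice.

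Of 13 genes of the MYC network, 3 rose and 1 fell in each genotype, with medians of 0.25 and 0.32. Of all genes tested 11.2% rose and 10.4% fell in Nt+/+ mice, and 12.5% rose and 12.6% fell in Nt-/- mice. Mga, a repressor in that network, fell from 104 ± 8.9 to 69.0 ± 8.9 CPM in Nt+/+ mice (log2 fold change, −0.59 ± 0.082 SE), and Mycl rose (0.55 ± 0.14; adjusted p = 0.0079, edgeR). Myc itself was named here after its values were seen. It ran from 48.7 to 78.5 CPM in fed and from 38.8 to 190 CPM in fasted Nt+/+ mice (0.90 ± 0.33, adjusted p = 0.054, edgeR). In Nt-/- mice Myc ran from 45.1 to 71.3 CPM when fed and from 30.4 to 120 CPM when fasted, and its fold change there is not given here. The difference of the fasting effects called no gene, Myc included, so these values do not show that the genotypes differ.

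The 6 genes with the E-box in their promoter had a median log2 fold change of −0.051 in Nt+/+ and −0.11 in Nt-/- mice, and the 24 without it had −0.037 and −0.18. Of the genes called without the block and with a promoter found, Utp20 holds the E-box whose sequence is given above, and Heatr1, Nat10, Gar1, and Nop56 do not. With the file-name block Rrn3 (both genotypes) and Nop2 (Nt-/- mice) were also called, and both hold it. The other genes added by that block have no match or no promoter found. A match of letters is a description and shows no binding.

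Lastly, 6 of the 36 genes also carry snoRNA genes on their own strand within their bounds, 19 in all: Nop56 holds 5, Nop58 4, Ncl, Wdr43, and Gnl3 3 each, and Dkc1 1. Snord82 in Ncl had 1155 counts over all mice, and at most 179 in a mouse. The other snoRNAs had between 0 and 80 counts over all mice, too few to compare their levels. The host genes were read through their own transcripts, with 213079 counts over all mice for Ncl and 37848 for Nop56.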

How the data were processed

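The authors sequenced ribosomal RNA–depleted crypt libraries as single-end reads and, per the submitters' processing notes and the methods, trimmed with Trimmomatic 0.39 and counted Ensembl GRCm38 release 100 genes with RSEM (version and strand setting not given in the sources used here). Per gene, the authors deposited the expected count (estimated reads, without normalization), the TPM, and the effective length in bases, another unit; FPKM was not used. TPM was used for order of levels alone. Members and lists were chosen with earlier results of these data known, and 55227 of 55487 IDs matched GENCODE M21.

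Expected counts were rounded. With edgeR 4.0.16 (R 4.3.3), 17875 genes that passed filterByExpr were fitted with TMM and 1 coefficient per group (15 residual degrees of freedom; biological coefficient of variation, 18.9%), and calls were made by quasi-likelihood test at a Benjamini-Hochberg adjusted p under 0.05. Intervals are at 95%. The script was tested on simulated data. DESeq2 1.42.0 was an alternative. Mice are taken as separate animals.

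Values are given for the 3 members of each role with the smallest p in either fasting comparison, per mouse for the 5 smallest, for the 3 smallest in the other comparisons, and for 2 genes of each pathway list. For pairing, residuals around the group means were correlated between mice: 27 pairs sharing a number gave a mean r of 0.18 by titles and 0.23 by file names, and the 108 others −0.046 and −0.056. By file names, every pair within each fasting and genotype comparison exceeded 0.1; by titles this held for Nt+/+ fasting and the fasted genotypes.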

Additional observations from a re-analysis of the deposited data

Results flagged for a closer look

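Polr1b in fed Nt-/- mice had 1 mouse far below the others, at 34.4 CPM (replicate 2), where the other 3 lay between 44.8 and 46.4. In fasted Nt-/- mice Wdr75 had a mouse at 23.6 CPM (replicate 5) under 4 mice between 25.5 and 26.2, and Pes1 had a mouse at 49.4 CPM (replicate 2) under 4 between 58.8 and 62.3. These 3 came from 148 groups of values looked at, fewer than the about 1 in 20 that chance gives, and none of the genes was called in any comparison.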

How the results depend on the processing

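No called member changed sign under any alternative. The counts of members lower moved most with the block: 10 in Nt+/+ mice with either number, and 16 (titles) or 18 (file names) in Nt-/- mice, with the replicate block. They were 1 in Nt+/+ mice without the mice numbered 2 and 3 in Nt-/- mice without the 2 libraries of lowest depth. Both alternatives were chosen after seeing the data, and the reason for the block is likewise a pattern seen in the data. The shares of all genes called in these fits are not given here, and the cause was not tested. With each mouse left out, from 1 (without fasted Nt+/+ replicate 2) to 6 (without fed Nt+/+ replicate 2; 5 without fasted Nt+/+ replicate 1 or 3) members were lower in Nt+/+ and from 4 (without fed Nt-/- replicate 1) to 10 in Nt-/- mice; members below 0 in the fed genotype comparison ran from 17 to 35. For the fits that left out a mouse, the shares of all genes called are not given here either. Some uncalled values near 0 changed sign. Polr1c in Nt-/- mice was at 0.0063 with DESeq2, 0.0075 with the file-name block, 0.0096 with the disputed mouse as Nt-/-, 0.024 without the 2 shallowest libraries, and 0.0019 without the mice numbered 2 (−0.071 to 0.060 leaving out a mouse), and Nop58 there at 0.0056 without the 2 shallowest libraries. Leaving out a mouse, Nop56 in Nt+/+ mice ran from −0.066 to 0.096 and Nop58 from −0.075 to 0.036. The block changed no call in the genotype comparisons or in the difference. The median of all genes moved by at most 0.022 on the log2 scale. No filter, a stricter filter, upper quartile scaling, sex as a covariate (1 mouse without a sex label dropped), and fits of the compared groups alone kept all counts within 1.5 times. With 4 or 5 mice a group and SEs near 0.11, smaller changes may go uncalled.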
